A study of Homo sapiens with 2 samples.

Results

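Inflammatory cytokine-high cells are the MDA-MB-231 cells with the most transcripts of 6 secreted cytokine genes, CXCL8, IL6, CXCL1, CXCL2, CXCL3 and CSF2. They were selected on these 6 genes alone. A score was taken per cell as the summed unique molecular identifiers (UMIs, each a captured transcript end) of the 6 genes per 10000 UMIs, and the top 5% of the cells of each library were the members. This gave 624 members of 12487 D21 cells and 375 members of 7492 D0 cells, 999 of 19979 cells in all. They were set against the bottom 50% of the same library, 6244 D21 cells and 3746 D0 cells, over all genes outside the score.

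MDA-MB-231 is a triple-negative breast cancer line of mesenchymal appearance. The D21 library holds revertant cells after 21 days in which methionine was left out of the medium and 100 µM homocysteine and 1.5 µM vitamin B12 were added. The D0 library holds parental cells kept in medium with 100 µM methionine, whose vitamin B12 content the labels do not give. Both media were RPMI with dialyzed, heat-inactivated serum, and each condition is 1 library of 1 line, so no value below has a replicate check and no test across samples was possible.

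CXCL8, CXCL1, CXCL2 and CXCL3 encode chemokines that attract neutrophils through CXCR2, IL6 encodes a cytokine that signals through the shared receptor chain IL6ST and STAT3, and CSF2 encodes the growth factor GM-CSF. All are known targets of NF-κB, a dimer of Rel proteins that IκB proteins hold in the cytoplasm until a signal, such as that of TNF or of IL-1 receptors, has them degraded. The freed dimers switch on cytokine genes and, with them, genes for their own inhibitors, such as NFKBIA and TNFAIP3, which gives the response its feedback. AP-1 and C/EBP factors act on many of the same promoters. MDA-MB-231 is widely used as a line that secretes these cytokines in culture.

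The promoters of the 6 score genes are shown because NF-κB is known to act on them. The windows hold the 150 bases before the RefSeq start site in GRCh38.p14, at chr4:73740419-73740568 (plus strand) for CXCL8, chr7:22727050-22727199 (plus) for IL6, chr4:73869243-73869392 (plus) for CXCL1, chr4:74099196-74099345 (minus) for CXCL2, chr4:74038690-74038839 (minus) for CXCL3 and chr5:132073639-132073788 (plus) for CSF2. They read 5′ to 3′ on the strand of the gene. Capitals mark matches on either strand to an NF-κB motif, GGNNTTTCC, and to an AP-1 motif, TGANTCA, which do not overlap each other in these windows.
CXCL8: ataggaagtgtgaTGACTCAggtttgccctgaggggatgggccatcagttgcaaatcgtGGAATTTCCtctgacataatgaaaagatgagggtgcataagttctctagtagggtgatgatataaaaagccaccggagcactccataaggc
IL6: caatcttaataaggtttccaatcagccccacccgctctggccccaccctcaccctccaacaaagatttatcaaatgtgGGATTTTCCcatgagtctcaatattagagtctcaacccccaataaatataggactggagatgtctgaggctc
CXCL1: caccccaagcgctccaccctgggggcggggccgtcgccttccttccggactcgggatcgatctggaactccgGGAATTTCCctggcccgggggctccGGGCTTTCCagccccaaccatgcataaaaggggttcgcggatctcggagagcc
CXCL2: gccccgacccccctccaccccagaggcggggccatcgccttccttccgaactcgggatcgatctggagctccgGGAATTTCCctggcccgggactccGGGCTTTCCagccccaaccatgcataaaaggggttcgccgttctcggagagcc
CXCL3: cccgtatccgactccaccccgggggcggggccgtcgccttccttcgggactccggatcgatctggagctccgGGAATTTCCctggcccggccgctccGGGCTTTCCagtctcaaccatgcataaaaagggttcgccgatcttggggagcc
CSF2: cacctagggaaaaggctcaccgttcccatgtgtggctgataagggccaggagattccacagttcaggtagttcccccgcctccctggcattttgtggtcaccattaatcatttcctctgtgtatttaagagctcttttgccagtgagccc
The NF-κB motif began 91 bases before the start of CXCL8 and 72 bases before that of IL6. CXCL1 and CXCL3 each held it at 78 and 53 bases before the start and CXCL2 at 77 and 53 bases. The AP-1 motif was found in the window of CXCL8 alone, 137 bases before the start. CSF2 held neither motif in this window, which says only that these letters are not in it. The CXCL1 and CXCL3 windows were the same at 129 of 150 bases. CXCL1, CXCL2 and CXCL3 are also close copies in their transcripts, so that reads could be split or lost between them in the authors' counting, and their separate levels are uncertain.

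The score was uneven over the cells. It was 0 in 60.1% of D21 cells and 62.4% of D0 cells, so every cell of the bottom 50% had a score of 0, and which of the cells at 0 were taken was decided by their order in the matrix. The last member had a score of 3.88 at D21 and 2.50 at D0, and the first cell outside had 3.87 and 2.50. The cut is therefore a point on a continuous range, and members close to it hold few cytokine molecules. A member held a median of 8 score UMIs at D21 (3 to 148) and 9 at D0 (3 to 157). The median score of the members was 6.67 per 10000 UMIs at D21 and 4.44 at D0, and the highest cell had 175 and 101. The members held 7604 of the 16334 score UMIs of the D21 cells (46.6%) and 5321 of 10500 of the D0 cells (50.7%). The 10 highest members alone held 12.3% and 15.1% of the members' score UMIs.

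**Figure D1:**
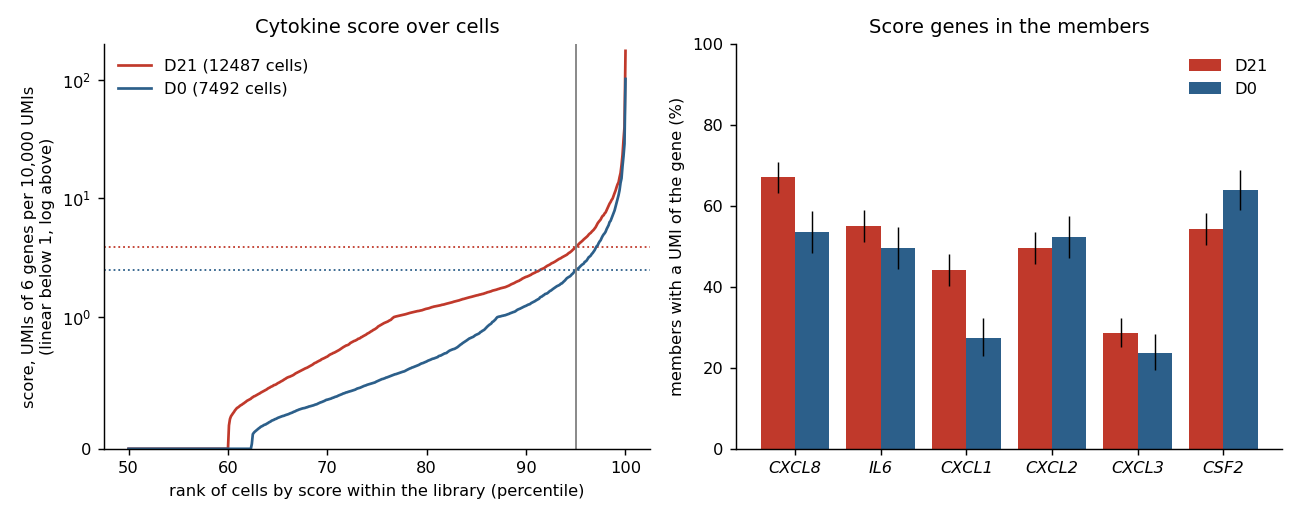
Left, the score of each cell (UMIs of the 6 genes per 10000 UMIs, linear below 1 and log above) against its rank in its library, with the 95th percentile as a grey line and the score of the last member dotted. Right, the share of members with at least 1 UMI of each score gene, with exact 95% binomial intervals. The score is 0 for 60.1% of D21 cells and 62.4% of D0 cells and climbs steeply in the last few percent.

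To compare the libraries at 1 depth, each cell was thinned to 5000 UMIs. At least 1 score UMI was then found in 22.4% of D21 cells (95% exact binomial interval 21.7 to 23.2%) and in 15.1% of D0 cells (14.3 to 15.9%). At least 3 were found in 4.31% of D21 cells (3.96 to 4.68%) and 2.56% of D0 cells (2.22 to 2.95%). At least 5 were found in 1.66% of D21 cells (1.44 to 1.90%) and 1.11% of D0 cells (0.883 to 1.37%). At least 10 were found in 0.464% of D21 cells (0.353 to 0.600%) and 0.360% of D0 cells (0.238 to 0.524%). The intervals of the last pair overlap and those of the other pairs do not. All intervals here cover the error of counting and leave out any variation from culture to culture. Barcodes with 10 to 100 UMIs, which are mostly empty droplets, held the 6 genes at 100.1 counts per 1000000 UMIs (CPM) at D21 and 79.79 CPM at D0, and no cell type in these libraries lacks the genes, so a cell with 1 score UMI cannot be told apart from one that caught free RNA.

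CXCL8 and CSF2 made up most of what the members were selected on. At least 1 CXCL8 UMI was present in 67.1% of D21 members and 53.6% of D0 members, and CXCL8 gave 35.6% and 27.9% of their score UMIs. CSF2 was present in 54.3% of D21 members and 64.0% of D0 members and gave 21.4% and 34.0%. IL6 was present in 55.1% and 49.6%, CXCL2 in 49.5% and 52.3%, CXCL1 in 44.1% and 27.5%, and CXCL3 in 28.7% and 23.7%. With members thinned to 5000 UMIs, the share with CXCL8 was 53.4% at D21 and 34.4% at D0 and that with CSF2 42.0% and 46.9%. That with CXCL2 was then 32.9% and 28.3%, an order opposite to the unthinned one. CXCL8 was thus found more often in D21 members and CSF2 in D0 members at either depth. Most members held only some of the genes. At least 3 of the 6 were found in 382 D21 members (61.2%) and 186 D0 members (49.6%), all 6 in 22 and 14, and only 1 in 91 and 75. By the gene with the most UMIs, CXCL8 led in 203 D21 members (32.5%) and 77 D0 members (20.5%), and CSF2 in 163 (26.1%) and 141 (37.6%). IL6 led in 74 and 54, CXCL2 in 68 and 53, CXCL1 in 37 and 9, CXCL3 in 5 and 1, and 74 and 40 members had a tie.

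Each score gene was also measured in the top 5% of cells by the other 5 genes, a description added after seeing the data. Its level was higher there than in the bottom 50% in each library. CXCL1 was 38.9-fold higher at D21 (95% interval 33.1 to 45.8) and 49.2-fold higher at D0 (37.0 to 66.5). CXCL8 was 24.1-fold (22.1 to 26.2) and 24.4-fold (21.7 to 27.5) higher. CXCL3 was 25.7-fold and 21.8-fold higher, and CXCL2 19.9-fold and 18.8-fold higher. IL6 and CSF2 followed the others less, by 8.60-fold and 8.62-fold for IL6 and by 7.51-fold (6.86 to 8.22) and 7.98-fold (7.32 to 8.70) for CSF2. Because CXCL1, CXCL2 and CXCL3 can share reads, these 3 were also measured in the top 5% by CXCL8, IL6 and CSF2 alone. CXCL1 was then 31.2-fold (26.9 to 36.5) and 41.4-fold (31.2 to 55.5) higher, CXCL2 15.8-fold and 14.5-fold, and CXCL3 17.2-fold and 13.6-fold.

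The members carried the markers of MDA-MB-231 cells. VIM, the mesenchymal filament protein, had 2580 CPM in D21 members and 2929 CPM in the bottom 50%, and 3658 and 4272 CPM at D0. KRT18, a keratin of simple epithelium, had 925 against 874 CPM at D21 and 872 against 835 CPM at D0. Members were therefore close to the bottom 50% in both. The 6 line markers had a median log2 ratio of 0.05 at D21 and 0.02 at D0, and 1 of the 6, CD44, was at least 1.5-fold higher in both libraries. Markers of cells that secrete these cytokines in tissue were at or near 0. The myeloid genes TYROBP and C1QA and all 4 neutrophil markers had no UMI among the 8039249 UMIs of the D21 members and the 8254350 UMIs of the D0 members, where a count of 0 allows up to 3. PTPRC, which marks all leukocytes, had 0.87 CPM at D21 and 0.97 CPM at D0. The 8 macrophage markers summed to 21.5 CPM in D21 members, against 22.5 CPM in the bottom 50%, and to 29.2 against 30.2 CPM at D0, nearly all of it CD68, which many cancer cells express. The 6 fibroblast markers summed to 4.48 against 1.79 CPM at D21 and to 3.03 against 2.92 CPM at D0, and the 4 endothelial markers to 6.47 against 8.16 CPM at D21 and 7.27 against 11.3 CPM at D0, most of it PECAM1.

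The members differed little from the bottom 50% in depth. They had a median of 10566 UMIs and 3478 genes at D21, against 10894 UMIs and 3574 genes in the bottom 50%, and 17898 UMIs and 4764 genes at D0, against 17122.5 UMIs and 4661 genes. The mitochondrial share was 6.95% against 6.67% at D21 and 6.13% against 5.78% at D0. Over all cells the median was 12022 UMIs at D21 and 18908 at D0, in libraries of 199817213 and 199799447 UMIs. The libraries shared 21 cell barcodes, of which none was a D21 member and 1 was a D0 member. The 6% of cells with the highest doublet scores held 4.49% of D21 members, against 4.36% of the bottom 50%, and 2.93% of D0 members, against 4.51%.

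Outside the score, the members of both libraries differed from the bottom 50% in much the same genes. Levels are CPM, summed UMIs per 1000000 UMIs of all genes but the 6 score genes, and 10476 genes reached 5 CPM over all cells of each library. At D21, 338 genes (3.23%) were at least 1.5-fold higher in members and 276 (2.63%) at least 1.5-fold lower. At D0 the counts were 438 (4.18%) and 315 (3.01%). In both libraries 263 genes (2.51%) were higher and 161 (1.54%) lower. The median log2 ratio of all 10476 genes was -0.045 at D21 and -0.008 at D0. The genes that follow were tied to the score by the choice of the cells, so these are descriptions of the cells and not tests.

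Most of the genes listed as inhibitors and subunits of NF-κB were higher in members, and NFKBIA was the only one of them among the 15 leading higher genes. NFKBIA (chromosome 14, 35401511 to 35404749, minus strand, GENCODE on GRCh38), which encodes IκBα, had 150 CPM in D21 members, against 34.7 CPM in the bottom 50%, a ratio of 4.31 (95% interval 4.02 to 4.61). At D0 it had 176 against 33.8 CPM, a ratio of 5.19 (4.86 to 5.54). A UMI of it was found in 67.8% of D21 members and 29.8% of the bottom 50%, and in 80.5% and 41.4% at D0. RELB, a Rel subunit that is itself induced by NF-κB, had 63.1 against 22.5 CPM at D21 and 74.4 against 20.2 CPM at D0. BCL3, an IκB-like protein that acts in the nucleus, had 26.3 against 9.53 CPM and 36.0 against 11.8 CPM. NFKBIZ, a nuclear IκB needed for IL6 induction in mouse cells, had 63.7 against 24.98 CPM and 58.9 against 24.4 CPM. Each was thus more than 2-fold higher in the members of both libraries.

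Of the 17 inhibitors and subunits listed, 15 passed the level filter, 14 of them were higher in members of each library and 11 were at least 1.5-fold higher in both. The median log2 ratio was 0.85 at D21 and 0.99 at D0. NFKB1 (1.05 and 0.99) and NFKB2 (0.65 and 1.04), which encode the p50 and p52 precursors, were higher, while RELA, the main activating subunit, had log2 ratios of 0.11 and 0.52. The inhibitors NFKBIB (0.24 and 0.42) and TNIP2 (0.31 and 0.20) were below 1.5-fold in each library, and N4BP1 had -0.32 and -0.06. TNFAIP3, which encodes the feedback enzyme A20, did not pass the filter and had 20.5 against 2.10 CPM at D21 and 10.5 against 1.12 CPM at D0. It was found in 17.9% of D21 members and 2.5% of the bottom 50%, and in 17.1% and 2.2% at D0. RELB, BCL3, NFKBIZ, NFKB2, RELA, NFKBIB, N4BP1 and TNFAIP3 are named here after their values were seen.

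NF-κB target genes outside the score had medians close to those of the inhibitors and subunits. BIRC3 (chromosome 11, 102317450 to 102339403, plus strand), an inhibitor of apoptosis downstream of TNF receptors, had 118 CPM in D21 members, against 21.2 CPM in the bottom 50%, a ratio of 5.56 (5.13 to 6.03). At D0 it had 103 against 12.6 CPM, a ratio of 8.20 (7.47 to 9.0). ICAM1 (chromosome 19, 10270835 to 10286615, plus strand), an adhesion molecule for leukocyte integrins, had 36.9 against 7.69 CPM at D21 and 31.3 against 4.02 CPM at D0, ratios of 4.79 (4.16 to 5.51) and 7.78 (6.57 to 9.20). SOD2, the mitochondrial superoxide dismutase, whose annotated span overlaps WTAP, had 234 against 60.2 CPM and 126 against 36.4 CPM. The ratio of these 3 genes was thus 3.46 or more in each library. Of 20 listed targets 18 passed the filter, 16 of them were higher in each library, and 11 were at least 1.5-fold higher in both, with median log2 ratios of 0.86 and 1.09. The receptor adaptor TRAF1 (1.79 and 2.0), TNFAIP2 (1.97 and 1.42), the death-receptor inhibitor CFLAR (1.05 and 1.16) and the transcription factor IRF1 (1.47 and 1.54), named after their values were seen, were among them. The plasminogen activator PLAU had log2 ratios of -0.33 and -0.06, and G0S2 0.40 and 0.09.

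The promoters of NFKBIA, BIRC3 and ICAM1 are shown because, of the 15 leading higher genes, 9 had a promoter in the RefSeq table and these 3 were the ones that held the NF-κB motif. They are the 250 bases before the RefSeq start, at chr14:35404750-35404999 (minus), chr11:102317234-102317483 (plus) and chr19:10270870-10271119 (plus), with the motif on either strand in capitals.
NFKBIA: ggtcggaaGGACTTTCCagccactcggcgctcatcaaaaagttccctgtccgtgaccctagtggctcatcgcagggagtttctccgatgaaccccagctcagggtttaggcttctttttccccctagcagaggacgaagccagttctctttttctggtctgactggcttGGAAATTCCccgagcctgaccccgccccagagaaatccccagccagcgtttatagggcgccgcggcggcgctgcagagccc
BIRC3: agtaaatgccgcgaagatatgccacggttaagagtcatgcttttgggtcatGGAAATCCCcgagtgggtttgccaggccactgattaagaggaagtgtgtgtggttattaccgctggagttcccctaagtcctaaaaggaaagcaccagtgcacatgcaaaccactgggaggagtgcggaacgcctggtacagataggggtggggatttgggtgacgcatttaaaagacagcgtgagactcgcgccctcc
ICAM1: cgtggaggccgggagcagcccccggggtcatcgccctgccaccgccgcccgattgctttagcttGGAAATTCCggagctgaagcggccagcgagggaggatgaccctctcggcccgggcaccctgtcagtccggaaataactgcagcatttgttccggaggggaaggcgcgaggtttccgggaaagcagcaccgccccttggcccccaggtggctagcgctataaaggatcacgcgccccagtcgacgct
The motif began 242 and 81 bases before the start of NFKBIA, 199 bases before that of BIRC3 and 186 bases before that of ICAM1. In windows of 300 bases (250 before to 50 after the start), 1710 of 27305 RefSeq promoters held the NF-κB motif (6.26%) and 2120 the AP-1 motif (7.76%). Of the genes compared that had a promoter, 554 of 8319 held the NF-κB motif (6.66%). Among the genes at least 1.5-fold higher in members of both libraries it was 25 of 197 (12.7%), and among the lower genes 4 of 125 (3.2%). The AP-1 motif was in 14 of the 197 (7.11%), 9 of the 125 (7.2%) and 4.27% of the genes compared. A match is a run of letters and not a measured binding site, and these shares were not tested.

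In the IL-1 family 7 of 16 genes passed the filter, and 3 of the 7, IL1R1, IL1RAP and IRAK2, were at least 1.5-fold higher in members of both libraries. IL1R1, the signalling receptor for IL-1, had 43.3 CPM in D21 members, against 10.4 CPM in the bottom 50%, and 28.4 against 7.20 CPM at D0, ratios of 4.17 (3.67 to 4.74) and 3.94 (3.37 to 4.60). IRAK2, a kinase-like adaptor of that receptor, had 39.3 against 11.1 CPM and 42.6 against 11.9 CPM. The co-receptor IL1RAP was 1.27 and 1.09 higher on the log2 scale. The other members that passed, IL18, MYD88, IRAK1 and IRAK4, had log2 ratios between -0.57 and 0.02. The 7 genes had a median of 0.02 in each library, and the adaptor MYD88 was level in both.

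IL1B itself, named after its values were seen, did not pass the filter in either library, with 3.75 CPM over all D21 cells and 0.23 CPM over all D0 cells. It had 44.0 CPM in D21 members (353 UMIs), against 1.19 CPM in the bottom 50%, and 1.45 CPM (12 UMIs) against 0.13 CPM at D0. It was found in 9.62% of D21 members, against 1.33% of the bottom 50%, and 1 member held 103 of the 353 UMIs. So it was a gene of few members. IL1A had 5.98 against 0.66 CPM at D21 and 3.27 against 0.23 CPM at D0.

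Chemokines outside the score were scarce, and 1 of 16, CCL28, passed the filter, with 9.46 against 8.99 CPM at D21 and 6.67 against 8.91 CPM at D0. Of those that did not pass, CCL20, which attracts CCR6-bearing cells, had 11.2 CPM in D21 members, against 0.21 CPM in the bottom 50%, and 1.33 against 0.03 CPM at D0. CXCL10, an interferon-induced chemokine, had 10.6 against 0.49 CPM and 2.55 against 0.16 CPM. CXCL5, CXCL6 and CXCL12 had no UMI in the members. The 16 genes summed to 52.5 CPM in D21 members, against 16.3 CPM in the bottom 50%, a ratio of 3.23 (2.89 to 3.61). At D0 they summed to 25.7 against 13.9 CPM, a ratio of 1.84 (1.58 to 2.14). Chemokine transcripts outside the score were thus few in the members, but more than in the bottom 50%. CCL20 and CXCL10 were named after their values were seen.

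Of 26 other cytokine genes 12 passed the filter, with median log2 ratios of 0.54 at D21 and 0.35 at D0, and 4 were at least 1.5-fold higher in both libraries. TNFSF10 (chromosome 3, 172505508 to 172523507, minus strand), which encodes the death ligand TRAIL, had 722 CPM in D21 members, against 138 CPM in the bottom 50%, and 515 against 85.8 CPM at D0. The ratios were 5.23 (5.06 to 5.40) and 6.01 (5.78 to 6.25). IL32 (1.07 and 1.75), CSF1 (1.11 and 1.22) and TGFB2 (0.90 and 0.81) were the others, chosen after their values were seen. IL11 (-0.50 and -0.52) and MIF (-0.07 and -0.17) were not higher. IL24 had 11.0 against 0.90 CPM at D21 and 0.24 against 0.36 CPM at D0, below the filter. Receptors moved little. Of 18 cytokine receptor genes 12 passed, with medians of 0.16 and 0.12, and 1, the interferon-gamma receptor IFNGR1 (1.51 and 1.33), was at least 1.5-fold higher in both. The IL-6 signal chain IL6ST had 0.38 and 0.41, CSF2RA had -0.18 and -0.41, and CXCR1 and CXCR2 had no UMI in the cells compared.

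Of the transcription factors that act with NF-κB some were higher in members and others close to level. All 10 AP-1 genes that passed, of 11, were above a ratio of 1 in each library, with medians of 0.45 and 0.55, and 3 were at least 1.5-fold higher in both. JUNB had 81.2 CPM in D21 members, against 27.9 CPM in the bottom 50%, and 112 against 33.0 CPM at D0. The stress factor ATF3, named after its values were seen, had 24.8 against 8.98 CPM and 24.0 against 8.34 CPM, and MAFF had log2 ratios of 0.78 and 1.03. FOSL1, an AP-1 factor of mesenchymal breast cancer cells, was almost level at 240 against 239 CPM at D21 and 289 against 255 CPM at D0. CEBPD, a C/EBP factor of acute inflammation, had 95.7 against 26.5 CPM and 91.9 against 23.4 CPM, and CEBPB, a regulator of IL6, had log2 ratios of 0.75 and 1.15. STAT3, the factor downstream of IL6, had 0.26 and 0.22, and its target SOCS3 0.09 and -0.30. Of the C/EBP and STAT3 list, 11 of 12 genes passed, 3 were at least 1.5-fold higher in both libraries, and the medians were 0.24 and 0.37.

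Immediate early genes showed the same pattern in part. Of 19 listed 13 passed, 12 of them were higher in members of each library, and 6 were at least 1.5-fold higher in both, with medians of 0.58 and 0.85. KLF6 had log2 ratios of 0.71 and 0.85, while JUN had 0.46 and 0.38 and KLF2 -0.08 and -0.10. In the list of MAPK feedback genes 15 of 17 passed and 4 were at least 1.5-fold higher in both libraries, DUSP1, DUSP10, EGR1 and MYC, while DUSP6 had -0.07 and -0.25 and PHLDA1 0.36 and 0.30. The medians there were 0.15 and 0.05. Of the EGFR list 6 of 8 passed, with medians of 0.30 and 0.37, and the ligands AREG (0.89 and 1.13) and HBEGF (0.86 and 0.74) were higher.

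Genes listed for the control of mRNA decay, not all of which encode proteins that destroy mRNA, were mostly level. Of the 12 listed 11 passed, none was at least 1.5-fold higher in both libraries, and the medians were -0.06 and 0.09. HNRNPD had log2 ratios of -0.26 and -0.28, ELAVL1 -0.06 and -0.06, and ZFP36L1 0.24 and 0.09. ZFP36, which encodes tristetraprolin, had 16.9 against 11.3 CPM at D21 and 23.0 against 12.7 CPM at D0. ZC3H12A, the NF-κB-induced nuclease Regnase, was below the filter and had 12.3 against 3.04 CPM and 13.8 against 2.40 CPM, ratios of 4.06 (3.18 to 5.15) and 5.76 (4.52 to 7.31). ZC3H12A and ZFP36 were chosen after their values were seen.

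The members also lay at the high end of the serum amyloid A programme of this line. SAA1, which encodes an acute phase apolipoprotein, had 1424 CPM in D21 members, against 338 CPM in the bottom 50%, a ratio of 4.22 (4.13 to 4.31), and 398 against 95.5 CPM at D0, a ratio of 4.17 (4.0 to 4.34). SAA2 had 572 against 89.0 CPM and 122 against 21.99 CPM. The transcripts are near copies, so reads may be split between them. CFB, complement factor B, whose gene overlaps C2, had 47.4 against 9.78 CPM and 21.6 against 6.16 CPM, and NNMT, which methylates nicotinamide with S-adenosylmethionine, 355 against 103 CPM and 209 against 40.4 CPM. Of 15 acute phase genes 5 passed, and all 5 were at least 1.5-fold higher in both libraries, with medians of 2.08 and 2.06. All 5 genes of the CEMIP and serum amyloid A state were so as well, with medians of 1.79 and 2.37. At equal depth, 21.0% of D21 members (17.9 to 24.4%) were also in the top 5% of their library by that state, against 2.99% of the bottom 50% (2.59 to 3.45%). At D0 it was 21.9% (17.8 to 26.4%) against 2.70% (2.20 to 3.27%). Most members were therefore outside the top 5% of that state.

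The bottom 50% was also weighted to the members over 10 groups of cells ranked by the score of that state. The state can still differ within a group. Some genes then held their ratio and others lost part or most of it, with no gap between them. NFKBIA had log2 ratios of 2.17 at D21 and 2.34 at D0, where the unweighted values were 2.11 and 2.38. IRAK2 had 1.82 and 1.88, JUNB 1.57 and 1.71, and NFKBIZ 1.36 and 1.35, all within 0.1 of the unweighted values. Other genes induced by NF-κB lost more. BIRC3 had 2.12 and 2.54 with the weighting, against 2.48 and 3.04 without it, and ICAM1 had 1.70 and 2.60, against 2.26 and 2.96. RELB had 1.31 and 1.69, against 1.49 and 1.89, and IRF1 1.08 and 1.05, against 1.47 and 1.54. CEBPD had 1.39 and 1.27, against 1.85 and 1.97, IL1R1 1.43 and 1.17, against 2.06 and 1.98, and CFLAR 0.52 and 0.46, against 1.05 and 1.16. Outside these, TNFSF10 was reduced to 1.47 and 1.32, FN1 to 0.92 and 0.90, and C15orf48, a small mitochondrial protein gene, to 1.06 and 0.91. SAA1, SAA2, CEMIP and NNMT are part of the state score, so their drop, to 0.46 and 0.09 for SAA1, follows from the weighting itself. CEMIP kept 0.33 and 0.53 and NNMT 0.74 and 0.97, so the weighting did not make the state fully equal. With this weighting 134 genes were at least 1.5-fold higher in both libraries, 117 of them among the 263, and 42 were lower, 28 of them among the 161.

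**Figure D2:**
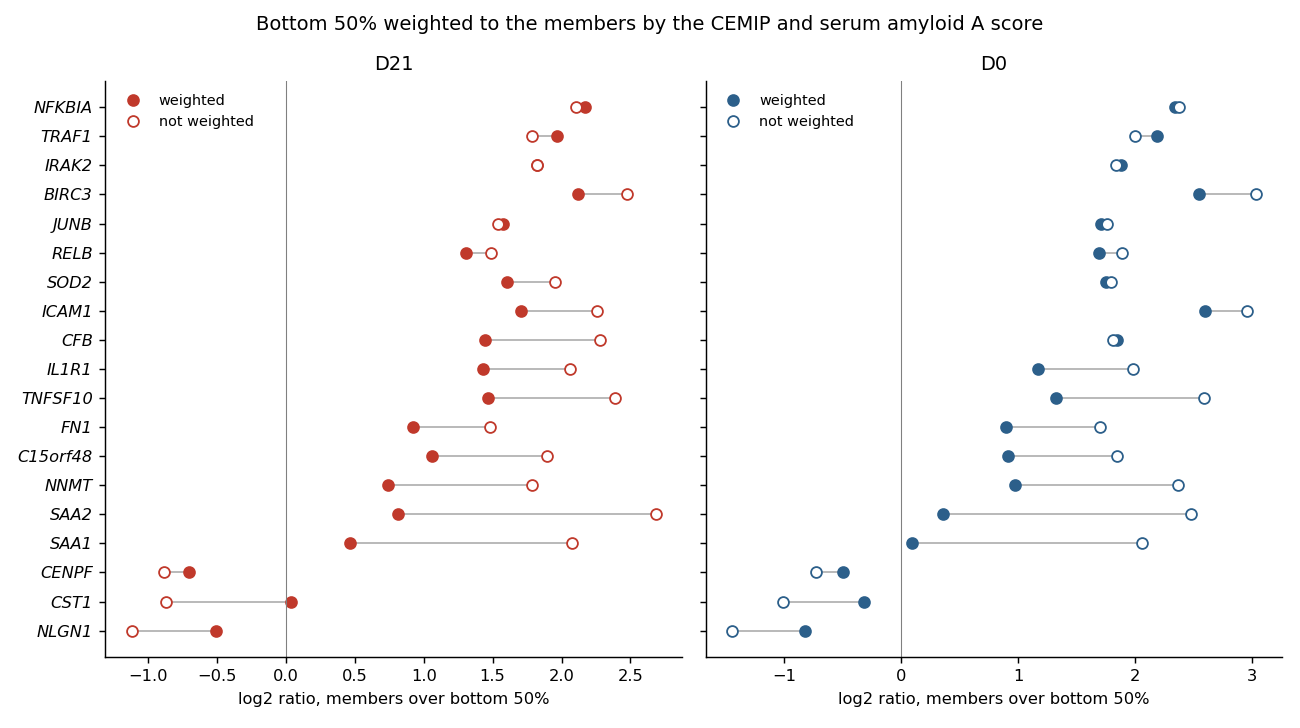
Log2 ratio of members over the bottom 50% for 19 genes at D21 (left) and D0 (right), before (open) and after (filled) the bottom 50% was weighted to the members by the CEMIP and serum amyloid A score. NFKBIA, TRAF1, IRAK2 and JUNB move by less than 0.2, SAA1 and SAA2 lose most of their ratio, and CST1 moves to 0.04 at D21 and -0.32 at D0.

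Interferon genes and MHC class I genes were higher by smaller ratios. All 10 genes of the interferon burst list were higher in members of each library, and 5 were at least 1.5-fold higher in both, with medians of 0.63 and 0.73. IFIT3, an antiviral protein, had 102 CPM in D21 members, against 51.2 CPM in the bottom 50%, and 89.5 against 51.8 CPM at D0. The sensor gene IFIH1, named after its values were seen, had 19.0 against 8.67 CPM and 16.9 against 5.97 CPM. No interferon ligand passed the filter, and IFNB1 had no UMI in the cells compared. Of 12 broadly expressed interferon-stimulated genes 10 passed, all higher in each library, with medians of 0.25 and 0.43, among them IFITM3 (0.62 and 0.82) and ISG15 (0.49 and 0.65). At equal depth 7.53% of D21 members (5.59 to 9.89%) were in the top 5% by the interferon burst score, against 4.23% of the bottom 50% (3.74 to 4.76%), and 8.0% of D0 members (5.46 to 11.2%), against 4.06% (3.45 to 4.74%). The share in members was thus above that in the bottom 50% in each library. Most members were outside this top 5%, whose size is set by its definition. The interferon burst genes did not peak in the members at D0. There the cells just below the members, at 90 to 95% of the score, held the 10 interferon burst genes at a summed 746 CPM, against 586 CPM in the members, and 9 of the 10 were higher in them. IFIT3 had 132 CPM in those cells, against 89.5 CPM in members, and IFIT2 81.8 CPM, against 59.2 CPM in members. ISG15, of the broad list, had 361 CPM in those cells, against 306 CPM in members. 1 of those cells held 666 of their 7754 UMIs of the 10 burst genes. At D21 the members were highest in the burst genes, with 599 CPM, against 495 CPM at 90 to 95%. The 10 broadly expressed genes that passed had their highest sum in the members of each library. It was 1752 CPM in D0 members, against 1507 CPM at 90 to 95%, where 2 of the 10 genes were higher than in members. At D21 it was 2000 against 1691 CPM, with 1 gene higher at 90 to 95%. All 15 MHC class I and antigen processing genes were above a ratio of 1 in each library, and 7 were at least 1.5-fold higher in both, with medians of 0.55 and 0.71. HLA-B had 1504 against 775 CPM at D21 and 1259 against 555 CPM at D0, ratios of 1.94 (1.90 to 1.98) and 2.27 (2.22 to 2.32).

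Matrix and surface genes were mixed. FN1, which encodes fibronectin, had 385 CPM in D21 members, against 138 CPM in the bottom 50%, and 486 against 150 CPM at D0, ratios of 2.80 (2.69 to 2.91) and 3.24 (3.13 to 3.36). COL6A2 was 1.45 and 1.61 higher on the log2 scale, whereas LAMA3, a laminin chain of epithelial basement membrane, had -0.56 and -0.83. Of 17 matrix genes 15 passed, 5 were at least 1.5-fold higher in both libraries, and the medians were 0.54 and 0.42. CD44, the hyaluronan receptor, had 599 against 382 CPM and 458 against 278 CPM. The integrin genes ITGA6 (-0.60 and -0.60) and ITGB4 (-0.71 and -0.56), which pair as a laminin receptor, were lower, and ITGB1 had -0.15 and -0.23. COL6A2, LAMA3, ITGA6 and ITGB4 were chosen after their values were seen.

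Of the 6 genes of the AGR2 state of this line, 2 were at least 1.5-fold lower in members of both libraries, CST1 and AFF3, and AGR2 itself was not lower. CST1, which encodes a secreted cystatin, had 255 CPM in D21 members, against 468 CPM in the bottom 50%, a ratio of 0.546 (0.522 to 0.571), and 244 against 491 CPM at D0, a ratio of 0.496 (0.474 to 0.519). It lost this difference at D21 when the bottom 50% was weighted by the serum amyloid A state, with a log2 ratio of 0.04, and had -0.32 at D0. SOX4, a transcription factor, had 43.0 against 56.6 CPM at D21 and 53.6 against 136 CPM at D0. AGR2 itself was level at D21, with 65.4 against 65.5 CPM, and higher at D0, with 182 against 139 CPM. The transcription factor gene AFF3 had log2 ratios of -0.79 and -0.86, SPANXB1 -0.47 and -0.47 and FAM155A -0.37 and -0.48, and AFF3 and FAM155A were named after their values were seen. The medians of the list were -0.43 and -0.67. With that weighting the median at D0 was 0.06, and SPANXB1 had 0.35 and 0.25, SOX4 0.33 and -0.74, AFF3 0.11 and -0.08 and FAM155A 0.48 and 0.19. AGR2 had 0.81 at D21 with it. All 6 genes were thus above 0 at D21 with the weighting, so the median of the list changed sign there too. The lower values of this list thus depended on the comparison cells.

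Genes of mitosis were lower in the members throughout. All 20 G2/M genes had a ratio below 1 in each library, and 13 were at least 1.5-fold lower in both, with medians of -0.70 and -0.67. CENPF, a kinetochore protein, had 227 CPM in D21 members, against 419 CPM in the bottom 50%, and 282 against 467 CPM at D0, ratios of 0.543 (0.518 to 0.569) and 0.604 (0.579 to 0.630). CDC20, an activator of the anaphase-promoting complex named after its values were seen, had 61.4 against 122 CPM and 63.2 against 130 CPM. ASPM and NEK2, a spindle protein and a centrosome kinase, were among the 10 leading lower genes, at 61.9 against 132 CPM and 76.0 against 154 CPM for ASPM. At equal depth 1.60% of D21 members (0.771 to 2.93%) were in the top 5% by G2/M genes, against 5.77% of the bottom 50% (5.20 to 6.37%). At D0 it was 0.80% against 5.95%. S phase genes were lower by less. Of the 20, 17 at D21 and 19 at D0 had a ratio below 1, none reached 1.5-fold, and the medians were -0.23 and -0.26. Their summed CPM had a ratio of 0.865 (0.848 to 0.883) at D21 and 0.843 (0.826 to 0.861) at D0. The members thus held fewer mitotic transcripts, with levels of replication transcripts closer to those of the bottom 50%.

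The other leading lower genes were of mixed kinds. NLGN1, a neuronal adhesion protein, had 32.9 CPM in D21 members, against 71.4 CPM in the bottom 50%, and 24.9 against 67.8 CPM at D0, ratios of 0.460 (0.405 to 0.521) and 0.367 (0.317 to 0.422). With the weighting by the serum amyloid A state its log2 ratio was -0.51 at D21 and -0.82 at D0. The rest were NRG2, SLCO4A1, CNTNAP3B, SPDEF, MERTK and the long noncoding AC044810.2 and AL035446.2.

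The genes of the methionine cycle and of vitamin B12 handling hardly differed in their medians. Of 9 methionine cycle genes that passed none was at least 1.5-fold higher or lower in both libraries, with medians of -0.05 and 0.05, and MTR, which encodes methionine synthase, had 30.6 against 31.7 CPM at D21 and 31.5 against 35.2 CPM at D0. The 8 vitamin B12 genes that passed had medians of 0.00 and 0.10. Glycolysis genes had medians of -0.09 and -0.25, cytosolic ribosomal protein genes 0.00 and -0.02, and mitochondrially encoded genes 0.02 and 0.06. Stress genes differed more. Among ATF4 targets 14 of 17 passed, with medians of 0.15 and 0.44, and 1 at D21 and 6 at D0 were at least 1.5-fold higher. At equal depth 7.53% of D21 members (5.59 to 9.89%) were in the top 5% by ATF4 targets, against 4.15% of the bottom 50% (3.67 to 4.67%), and 15.2% of D0 members (11.7 to 19.2%), against 3.95% (3.35 to 4.63%). At D0, DDIT3 had a log2 ratio of 1.23, PPP1R15A 1.20 and SLC3A2 1.01, and at D21 they had 0.69, 0.53 and 0.19. The difference between the libraries was not tested. All 11 oxidative stress genes that passed, of 13, were higher in members of each library, with medians of 0.24 and 0.50, and 1 at D21 and 5 at D0 were at least 1.5-fold higher. FTH1, the ferritin heavy chain, had 5428 CPM in D21 members, against 3027 CPM in the bottom 50%, and 4822 against 2376 CPM at D0. The summed CPM of the list had a ratio of 1.37 (1.36 to 1.38) at D21 and 1.82 (1.80 to 1.83) at D0, most of it FTL and FTH1. The nuclear RNAs MALAT1 (0.34 and 0.61) and NEAT1 (0.47 and 0.76) were higher in members, and their part in the other results was not tested.

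**Figure D3:**
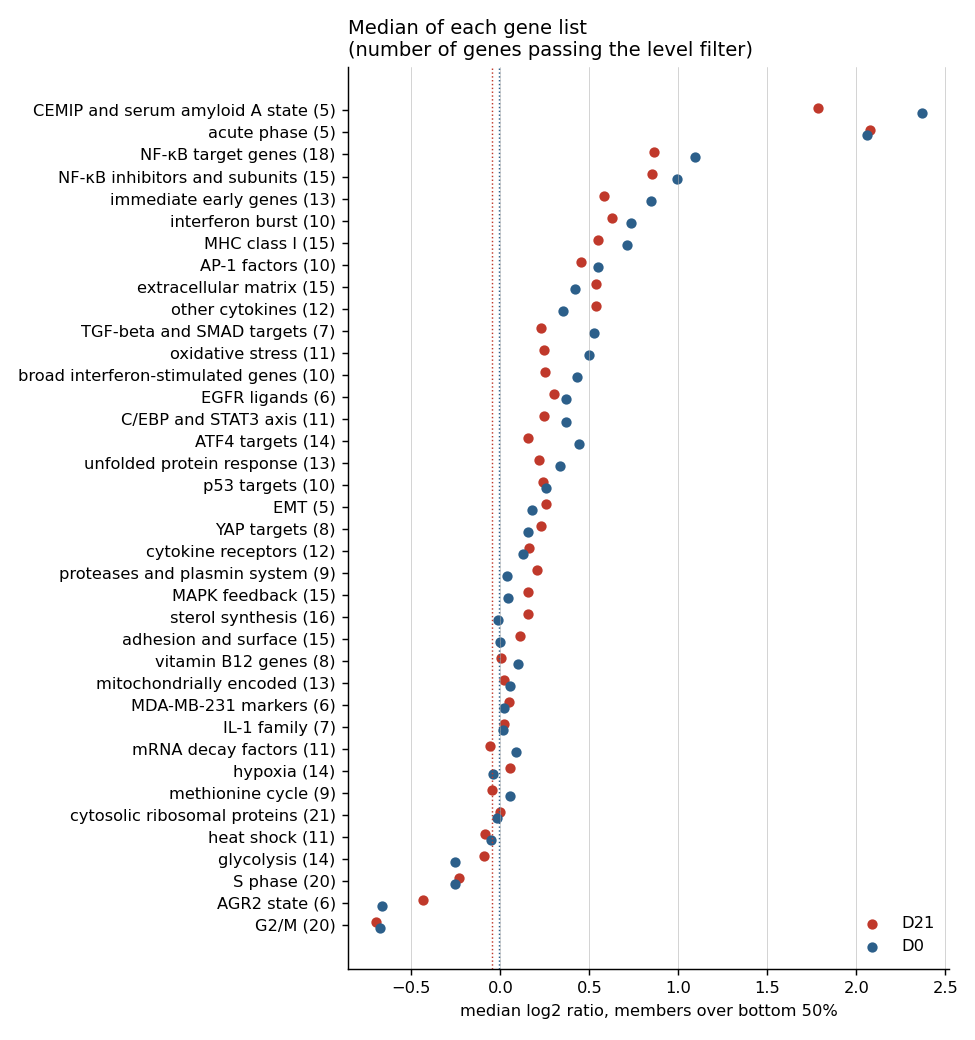
Median log2 ratio of members over the bottom 50% for each gene list with at least 5 genes past the level filter, at D21 and D0, with the number of genes in brackets and the median of all genes dotted. Serum amyloid A, acute phase and NF-κB lists lie at the top, between 0.85 and 2.37, and G2/M genes at the bottom, at -0.70 and -0.67.

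The levels of the leading higher genes followed the score over its groups and not only at its top. Over 5 groups of cells from the bottom 50% to the top 5%, each of the 15 leading higher genes was higher at every step in both libraries. These genes were chosen by their ratio between the end groups, and the share of all genes that rose at every step was not counted. A score of 0 was held by 60.1% of D21 cells and 62.4% of D0 cells, so the second group also held cells at 0. NFKBIA had 34.7, 43.0, 67.5, 96.6 and 150 CPM at D21 and 33.8, 39.2, 63.7, 87.0 and 176 CPM at D0. ICAM1 had 7.69, 9.34, 13.3, 20.5 and 36.9 CPM at D21 and 4.02, 4.54, 6.66, 10.0 and 31.3 CPM at D0, with the larger step at the end. RRAD and LGALS12 are the leading higher genes not described above. From the bottom 50% to the members RRAD went from 12.3 to 66.5 CPM at D21 and from 4.83 to 25.9 CPM at D0. LGALS12 went from 3.71 to 13.4 CPM at D21 and from 4.22 to 19.9 CPM at D0. Of the 10 leading lower genes 4 at D21 and 5 at D0 were lower at every step. CENPF was higher in the second group, at 443 CPM at D21 and 490 CPM at D0, than in the bottom 50%, at 419 and 467 CPM, and lowest in the members.

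**Figure D4:**
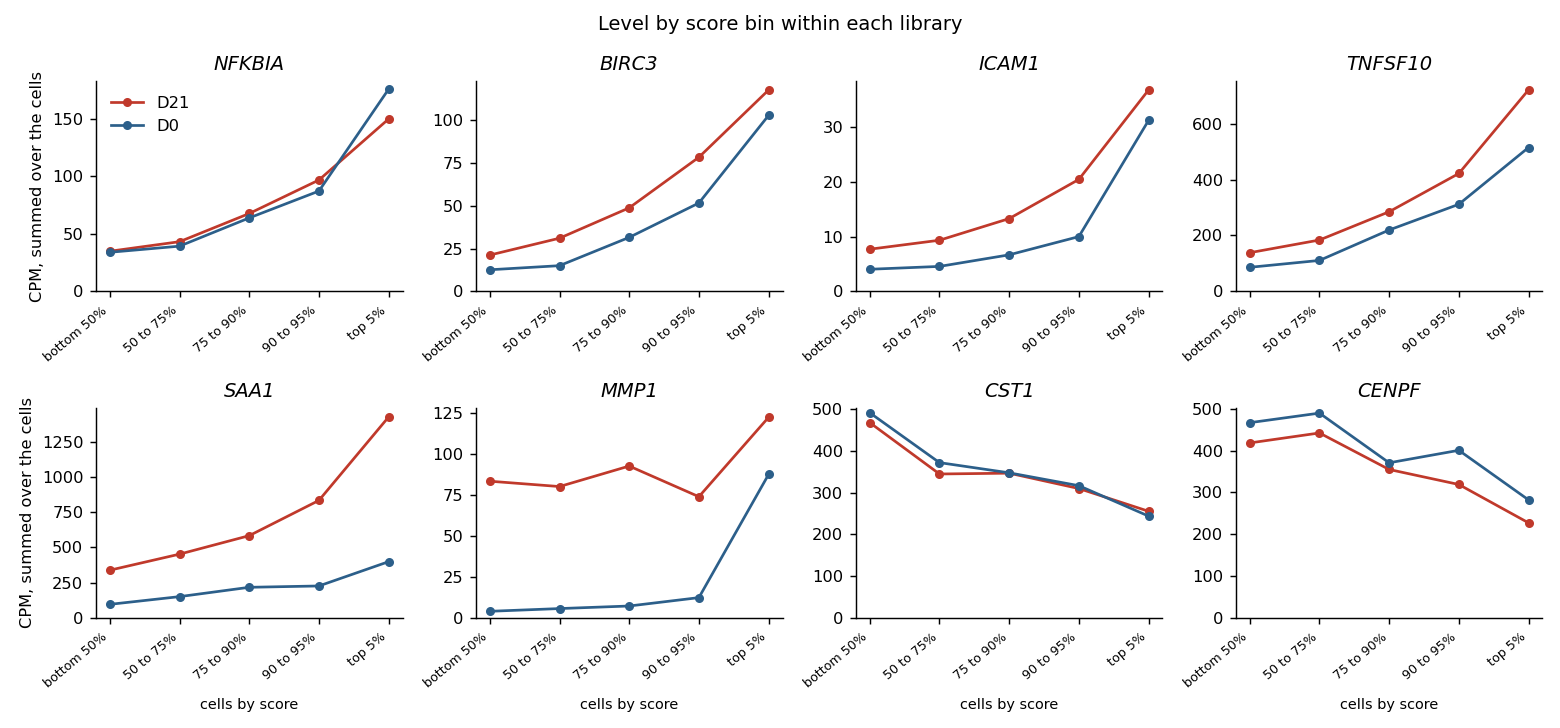
CPM of 8 genes, summed over cells, in 5 groups of cells by score, from the bottom 50% to the top 5%, at D21 and D0, each panel starting at 0. NFKBIA, BIRC3, ICAM1, TNFSF10 and SAA1 climb over all 5 groups, MMP1 at D0 climbs mainly in the top 5%, and CST1 and CENPF are lowest there.

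Few genes differed between the libraries in how members stood to the bottom 50%. The quotient of the 2 ratios, D21 over D0, was at least 2 for 3 of 10474 genes (0.0286%) and at most 0.5 for 10 (0.0955%). MMP1 (chromosome 11, 102789920 to 102798160, minus strand), which encodes an interstitial collagenase and lies antisense to WTAPP1, had 122 CPM in D21 members, against 83.3 CPM in the bottom 50%, a ratio of 1.47 (1.37 to 1.57). At D0 it had 87.4 against 3.97 CPM, a ratio of 22.02 (19.2 to 25.3). Between the libraries, the members differed 1.40-fold (1.27 to 1.54) and the bottom 50% 21.0-fold (18.7 to 23.6), both higher at D21. It was found in a smaller share of D21 members than of the bottom 50%, 15.1% against 19.2%. At D0 it was a gene of few cells, found in 8.0% of members, against 2.4%. 1 member held 130 of the 982 MMP1 UMIs of the members at D21 and 1 held 245 of 721 at D0. Without that member the log2 ratio was 0.35 at D21 and 3.86 at D0, and with CXCL8 left out of the score it was -0.13 at D21.

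GDF15, a stress-induced hormone of the TGF-β family, had 18.3 against 12.8 CPM at D21 and 38.9 against 7.60 CPM at D0, ratios of 1.43 (1.20 to 1.70) and 5.12 (4.45 to 5.88). LINC01411, a long noncoding RNA, had a ratio of 2.76 (2.41 to 3.16) at D21 and 1.28 (1.13 to 1.44) at D0, and ITGB8, an integrin that activates TGF-β, 1.33 and 0.497. RIOX1 had 1.06 and 0.512. HS6ST3, a heparan sulfate sulfotransferase, had 0.674 at D21 and 2.18 at D0, where 28 of 145 UMIs came from 1 member, and its log2 ratio at D21 was 0.32 with the weighting by the serum amyloid A state. LYPLAL1-DT, a divergent transcript, had 0.608 and 1.56. AKR1C1, a steroid reductase named after its values were seen and below the filter, had 1.49 against 0.61 CPM at D21 and 23.3 against 1.36 CPM at D0. With 1 library per condition these differences were not tested.

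Set against each other, members led by CXCL8 and members led by CSF2 were unlike in some genes in both libraries. This comparison was added after seeing the data, and the genes named in it were chosen after their values were seen. Of 9122 genes, 9 were at least 2-fold higher in CXCL8-led members of both libraries and 18 at least 2-fold lower. MMP1 had 254 CPM in CXCL8-led members, against 65.3 CPM in CSF2-led members, at D21 and 147 against 37.0 CPM at D0. At D0, 1 CXCL8-led member held 245 of the 293 UMIs, and without it MMP1 had 24.4 against 37.0 CPM, a ratio of 0.658 (0.459 to 0.9298), so the direction at D0 rested on that member. Without the member with the most UMIs the ratio at D21 was 3.19 (2.64 to 3.88). The activin antagonist FST was 2.52-fold (1.84 to 3.49) and 2.66-fold (2.05 to 3.47) higher, and 2.29-fold and 1.41-fold higher without the member with the most UMIs, which held 78 of 163 at D0.

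The cystatins were higher in CSF2-led members. CST1 had 75.7 CPM in CXCL8-led members, against 688 CPM in CSF2-led members, at D21 and 110 against 430 CPM at D0, and CST4 had ratios of 0.178 and 0.242. Without the member with the most UMIs, CST1 had ratios of 0.117 and 0.281. The other genes of the AGR2 state were less uniform. SPANXB1 had ratios of 0.349 and 0.558 and SOX4 0.333 and 0.623, while AFF3 had 0.632 and 1.40 and FAM155A 0.854 and 1.06. AGR2 had 0.619 and 0.825, and 0.377 and 1.09 without the member with the most UMIs. The trefoil factor TFF3 had ratios of 0.190 and 0.360, and 0.268 and 0.715 (0.360 to 1.36) without that member. The mucin MUC1 had 0.382 and 0.293, and TNS4, a focal adhesion protein, 0.112 and 0.099.

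NF-κB-induced genes were found in members of either kind, but not at equal levels. SOD2 had 272 CPM in CXCL8-led members, against 97.7 CPM in CSF2-led members, at D21 and 110 against 68.2 CPM at D0. NFKBIA had 131 CPM in CXCL8-led members, against 178 CPM in CSF2-led members, at D21 and 131 against 201 CPM at D0, and BIRC3 had 123 against 105 CPM and 137 against 98.7 CPM. FOSL1 was level, with ratios of 1.00 (0.90 to 1.12) and 1.01 (0.916 to 1.12). SAA1, CEMIP and TNFSF10 did not run the same way in the libraries. SAA1 had ratios of 1.27 at D21 and 0.703 at D0, CEMIP 2.02 and 0.594, and TNFSF10 3.68 and 1.06.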

How the data were processed

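The 2 single-cell libraries, 1 of D21 revertant and 1 of D0 parental MDA-MB-231 cells, were made with the 10x Genomics 3′ kit, and samples were grouped by the submitters' labels. The deposited values are raw UMI counts per gene and barcode, made by the authors with Cell Ranger 4 per the file headers, on GRCh38 per the submitters' processing notes. The annotation and mapping settings are not stated in the sources used here, and empty droplets are included. Cell calling was done here, since the matrices held 1985765 and 2061732 barcodes. Cells were barcodes with at least 5422 UMIs at D21 and 9009 UMIs at D0 (10% of the 99th percentile over the 5000 barcodes with the most UMIs), at least 500 genes and at most 20% mitochondrial UMIs. This kept 12487 of 12525 and 7492 of 7503 barcodes, with 91.5% and 91.6% of all UMIs. Doublets were kept, and Scrublet scores (scanpy 1.11.5) were used in an alternative without the highest 6%.

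UMIs were summed over members and over the bottom 50% (8039249 and 80066015 UMIs at D21, 8254350 and 77091671 at D0) with Python 3.11.15, numpy 2.4.6, scipy 1.17.1 and pandas 2.3.3. Ratios have exact conditional 95% intervals for 2 Poisson counts and shares exact Clopper-Pearson intervals. Genes needed 5 CPM over all cells of each library. A gene was counted at a ratio of at least 1.5 or its inverse. Since the cells were selected on measured values in 1 library per condition, no p-value was computed. The computations were tested on simulated data.

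The members and the 47 gene lists were chosen with earlier results of these data known. Genes named were the 15 leading higher and 10 leading lower by the ratio nearer to 1, the 5 whose log2 ratio differed most between libraries (20 or more UMIs in each member group), the 3 highest and 3 lowest quotients, and up to 4 of the highest members of each list, and others are said to be chosen after their values were seen. Also chosen so were MAFF, SOCS3, KLF2, DUSP1, DUSP10, EGR1, MYC, IFNGR1, CSF2RA, IL11, IL24, IL1A, MYD88, IRAK4, MTR, DDIT3 and PPP1R15A. Alternatives changed the share of cells taken, the comparison cells, the score, depth, weighting, cell limits, doublets, summing, filter and fold. The comparison with all cells at a score of 0, the omission of the highest member per gene, the left-out score genes, the CXCL8-led against CSF2-led members and the interferon lists by score group were added after seeing the data. Promoters were taken from RefSeq on GRCh38.p14.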

Additional observations from a re-analysis of the deposited data

Results flagged for a closer look

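LYPLAL1-DT, a divergent long noncoding transcript, ran in opposite directions in the libraries. Its log2 ratio of members over the bottom 50% was -0.717 at D21 and 0.643 at D0, and the difference was not tested, since each condition is 1 library. The direction was the same in each library under all 16 alternatives run on it, which include the filter of 1 CPM, where the value cannot change. The log2 ratio moved to -0.116 at D21 and 1.126 at D0 when the bottom 50% was weighted by the serum amyloid A state. Signal of the score genes was also present in barcodes outside the cells. Barcodes with 10 to 100 UMIs held 311 UMIs of the 6 genes at D21 and 339 at D0, above the 3 counts that a count of 0 allows. This is 100.1 CPM at D21 and 79.79 CPM at D0.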

How the results depend on the processing

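No paired analysis was possible because each condition is 1 library. Over the alternatives, 22 of 34 counts of genes higher or lower in both libraries stayed within 1.5 times the count reported, the 2 counts at a 2-fold threshold being among the 34. With the top 2% as members 353 genes were lower in both libraries, with the top 10% 39, with the score on a random 50% of the UMIs and levels from the rest 104, and with the UMI minimum at 20% 94. With the bottom 50% weighted by the serum amyloid A state 134 were higher and 42 lower. A filter of 20 CPM gave 133 and 80, of 1 CPM 482 and 297, and a 2-fold threshold 94 and 9, as fewer or more genes are then counted. The median of NF-κB target genes was 1.081 at D21 and 1.318 at D0 (top 2%), 0.699 and 0.894 (top 10%), 0.747 and 0.887 (against all other cells) and 0.736 and 0.807 (weighted by the state). It was 0.774 at D21 with the split UMIs, 0.649 at D21 with 20 CPM and 0.923 at D0 with the higher UMI minimum. That of NF-κB inhibitors at D0 was 1.134 (top 2%). Quotients of at least 2 numbered 20 (top 2%) and 5 (top 10%), and those of at most 0.5 numbered 37, 5 and, thinned, 23. With the top 10%, 16.57% of D21 and 15.49% of D0 members were in the top 5% of that state. The same weighting reversed the AGR2 list at D0 (0.058), CST1 at D21 (0.039), CST4 at D21 (0.161) and D0 (0.052), AFF3 at D21 (0.109) and THBS1 at D0 (-0.122), and the top 2% ZC3HAV1 at D0 (-0.051). Of genes under 1.5-fold the weighting also turned SPANXB1 at D21 (0.345) and D0 (0.245), SOX4 (0.331), FAM155A (0.482), HS6ST3 (0.323) and PECAM1 (0.403) at D21, among others. Of 1370 list medians 1172 stayed between the median lower and the median upper counting limit of the list's genes, and 1 was counted as reversed. A reversal was counted only where the median reported was at least 1.5-fold. The sign change of the AGR2 list at D21 with the weighting is thus not in that count. The range between these limits is not a counting interval of the median itself. Of 4864 values of named genes 3450 stayed within the counting interval of the value reported. The filters of 20 and 1 CPM cannot change the value of a gene, and they gave 200 and 292 of both the 4864 and the 3450. The sign changed in 93 of the 4864, 28 of them with that weighting, and in 6 of the 93 the value reported was at least 1.5-fold. Where not stated, the cause was not tested. Low genes have wide counting intervals, as IL1B at D0, with 12 UMIs in members and a ratio of 11.2 (4.44 to 28.98).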
